A study of Homo sapiens with 15 samples.

Results

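TNFRSF12A and 9 other genes of tumor necrosis factor (TNF) receptors were followed through an RNA-seq experiment on condensates of the YAP-MAML2 fusion. The 10 members, TNFRSF12A, TNFRSF10A, TNFRSF10B, TNFRSF10D, TNFRSF1A, TNFRSF21, TNFRSF19, TNFRSF11A, FAS and LTBR, were taken by gene symbol from a count table of 61533 gene identifiers, and TNFRSF12A was placed at their head because its RNA was higher when the condensates had dissolved. The level of TNFRSF12A in the cells with and without condensates therefore chose it and is given as a description, with no test. All 10 members were found in the table and 8 of them passed the filter on low counts, while TNFRSF10A and LTBR did not.

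The cells were HEK293, a human embryonic kidney line that the labels call HEK293T, engineered to express the tested constructs stably. SPARK-OFF cells carried YAP-MAML2 fused to FKBP and mEGFP together with a nuclear mCherry fused to Frb, so that rapamycin, which binds FKBP and Frb at once, brings mCherry to the fusion and dissolves its condensates. YAP-MAML2 was therefore condensed in SPARK-OFF cells given DMSO for 5 h and diffuse in SPARK-OFF cells given rapamycin for 5 h. No-mCherry cells carried the tagged fusion without mCherry and received DMSO or rapamycin for the same 5 h, and eGFP cells carried no fusion and are called mock in the labels, with neither agent named. Each of the 5 groups had 3 libraries. The description of the no-mCherry DMSO samples mentions rapamycin, in conflict with their titles and treatment field, which were followed. Whether the 3 libraries of a group came from separate cultures is not stated, and the p-values thus speak of the spread among libraries, which may be technical. In RNA from whole cultures, fewer cells that express a gene and less RNA per cell cannot be told apart.

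TNF receptors are membrane proteins that cluster when they bind a ligand of the TNF family, most of which are themselves membrane proteins of other cells. Receptors with a death domain, such as FAS, TNFRSF1A and the receptors for TRAIL, can recruit FADD and caspase-8 and start apoptosis, while receptors without one, such as TNFRSF12A, TNFRSF11A and LTBR, recruit TRAF adaptors and signal to NF-kB. TNFRSF12A, also called Fn14, is a small receptor for the ligand TWEAK and is induced by growth factors and injury.

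Libraries held 14720387 to 24797509 counts (median 17631701). Fold changes, intervals and p-values came from a single edgeR quasi-likelihood fit of all 15 libraries, and a gene is called changed where its p-value adjusted by the Benjamini-Hochberg method over all 18391 genes tested was under 0.05. Levels are in CPM, counts scaled to library size, and levels of different genes are compared only per kilobase of the canonical transcript (RPKM). No-mCherry DMSO replicate 3 stood apart, with a mean correlation of 0.957 with its own group against 0.974 to 0.994 for the other libraries, so results that rest on it are given without it too. MAML2, whose sequence is part of the fusion, was at 3.63 ± 0.782 CPM in eGFP cells (SD, n = 3 for all group means) and was called higher by 5.91 to 7.21 on the log2 scale in every group that carries the fusion. The 10 HEK293 markers were found in every library, and the T cell and B cell markers CD3E and MS4A1 were at 0 in all of them.

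Per length, TNFRSF10B had the highest mean of the set in eGFP and no-mCherry cells and TNFRSF12A in both SPARK-OFF groups. In eGFP cells, TNFRSF10B stood at 22.8 ± 1.01 RPKM, TNFRSF12A at 14.3 ± 2.71 and TNFRSF1A at 12.8 ± 1.29, and these last 2 overlapped in their spread. TNFRSF10D (4.59 ± 0.676 RPKM), TNFRSF21 (3.67 ± 0.568) and FAS (3.37 ± 0.633) followed, with TNFRSF19 at 1.67 ± 0.0537 and TNFRSF11A at 1.05 ± 0.243. In diffuse cells TNFRSF12A reached 64.2 ± 0.455 RPKM, above TNFRSF10B at 21.7 ± 1.24 and TNFRSF1A at 15.4 ± 0.59. TNFRSF10A, a TRAIL receptor with a death domain, had 29 counts over the 15 libraries, with 0 in 5 of them and 6 at most. LTBR, the receptor for lymphotoxin, had 15 counts, with 0 in 9 libraries and 6 at most. A floor of 3 counts corresponded to 0.119 to 0.206 CPM per library, and neither TNFRSF10A nor LTBR could be compared between groups at this depth.

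TNFRSF12A lies on chromosome 16 of hg38 (chr16:3018445-3022383, plus strand), with 4 exons in its canonical transcript. Its level was 16.2, 11 and 14.7 CPM in the eGFP libraries and 28.4, 29.2 and 31.2 CPM in the condensed SPARK-OFF libraries. The diffuse SPARK-OFF libraries held 62.2, 62.8 and 63.1 CPM. These 3 groups were wholly separate, with the diffuse cells highest and the eGFP cells lowest. No-mCherry cells held 16.4, 16.5 and 21.9 CPM with DMSO and 16.6, 16 and 14.6 CPM with rapamycin. Both no-mCherry groups lay below every SPARK-OFF library, and the rapamycin libraries overlapped those with DMSO and those of the eGFP cells.

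**Figure D1:**
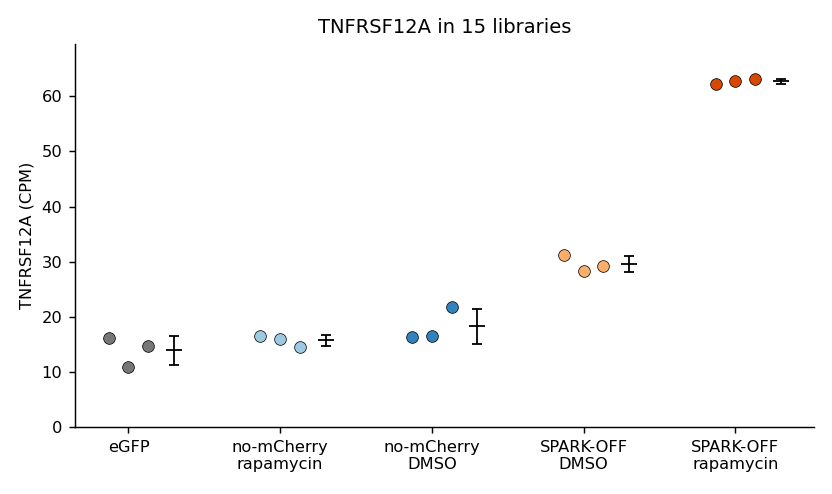
TNFRSF12A level in CPM (vertical axis, from 0) in each of 15 libraries (points), by group in ascending order of the group mean; the bar beside the points is the mean ± SD of 3 libraries. The diffuse SPARK-OFF libraries sit at 62.2 to 63.1 CPM, the condensed ones at 28.4 to 31.2, and the other 3 groups between 11 and 21.9.

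The mean of TNFRSF12A was 29.6 ± 1.46 CPM in condensed cells and 62.7 ± 0.445 in diffuse cells, a 2.12-fold difference (log2 1.08, standard error 0.12), which describes the contrast that chose the gene. In that contrast 24 of 18391 genes were called, or 0.13%, and 7 of them (0.0381%) were higher in diffuse cells. Against eGFP cells (14 ± 2.65 CPM) the log2 fold change was 1.09 (standard error 0.13) for condensed and 2.17 (standard error 0.13) for diffuse cells, 2.13-fold and 4.5-fold. Against no-mCherry cells with the same agent it was 0.70 (standard error 0.13) under DMSO and 1.99 (standard error 0.12) under rapamycin. Without no-mCherry DMSO replicate 3 the log2 difference under DMSO was 0.85.

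The no-mCherry libraries lie outside the contrast that chose TNFRSF12A, though the members were chosen with earlier results of these data known. They describe how TNFRSF12A behaved with rapamycin and with the fusion alone. In these cells TNFRSF12A was 15.8 ± 1.03 CPM with rapamycin and 18.3 ± 3.14 CPM with DMSO, a log2 fold change of -0.21 (95% interval -0.49 to 0.06) that was not called (adjusted p = 0.463). The log2 response to rapamycin in SPARK-OFF cells was larger than that in no-mCherry cells by 1.30 (standard error 0.18), a value that contains the choosing contrast and supports nothing beyond it, and by 1.14 without no-mCherry DMSO replicate 3. Against eGFP cells the no-mCherry cells with DMSO were higher by 0.39 on the log2 scale (95% interval 0.12 to 0.67), which missed the threshold (edgeR adjusted p = 0.0533; DESeq2 0.0328). This difference was 0.24 with adjusted p = 0.311 once replicate 3 of the DMSO group was left out. With rapamycin the difference from eGFP cells was 0.18 (95% interval -0.10 to 0.45, adjusted p = 0.398).

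RNA of the fusion was lowest in eGFP cells and highest in diffuse SPARK-OFF cells, as TNFRSF12A was. MAML2 was at 220 ± 19.3 CPM in no-mCherry cells with DMSO, 243 ± 15.7 with rapamycin, 415 ± 23.9 in condensed and 540 ± 31.6 in diffuse cells. YAP1 likewise went from 52.8 ± 2.29 CPM in eGFP cells to 131 ± 10.9, 148 ± 23.5, 202 ± 18.1 and 267 ± 19.0 in those 4 groups. MAML2 was higher in diffuse than in condensed cells by 0.38 on the log2 scale (95% interval 0.18 to 0.58, edgeR adjusted p = 0.209). YAP1 was higher by 0.41 (95% interval 0.19 to 0.62, edgeR adjusted p = 0.215). For both genes the diffuse libraries lay wholly above the condensed ones, though neither gene was called. The authors reported an unchanged level of the fusion protein after dissolution. The part of fusion RNA in the level of TNFRSF12A was not tested. The YAP target genes CCN1 and CCN2 were highest in condensed cells (1390 ± 47.7 and 1470 ± 106 CPM) and were called lower in diffuse cells (888 ± 15.4 and 903 ± 7.29 CPM). An exon of CLDN6 overlaps TNFRSF12A on the other strand over 40 bases, and the strand setting of the counting is not given in the sources used here. CLDN6 itself had 213 counts over all libraries against 7910 for TNFRSF12A.

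The genes whose levels ran most like TNFRSF12A were sought among 11374 genes with a mean of at least 5 CPM, by Pearson's r of log2 CPM over the 15 libraries. This is a description over libraries that fall in 5 groups, so it mostly follows the group means. TUFT1 came first (r = 0.951), followed by GADD45A (0.933), CSRNP1 (0.930), CNN3 (0.921), SLC48A1 (0.920), TEAD1 (0.912), MCL1 (0.907) and TPM3P9 (0.906). TUFT1, which encodes tuftelin, was at 12.6 ± 1.23 CPM in eGFP cells, 31.6 ± 1.27 in condensed and 42 ± 6.52 in diffuse cells. TEAD1, a DNA-binding partner of YAP, was at 49.2 ± 5.94, 85.6 ± 13.1 and 109 ± 1.86 CPM in the same groups. GADD45A, a stress-response gene, was at 43.7 ± 2.30, 61.6 ± 0.852 and 71.4 ± 2.10 CPM. With Spearman's rank measure, TUFT1 and TPM3P9 were the 2 genes that stayed among the top 8. Of the other receptors TNFRSF1A came nearest (r = 0.68), and TNFRSF10B and FAS had an r of -0.44 each.

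**Figure D2:**
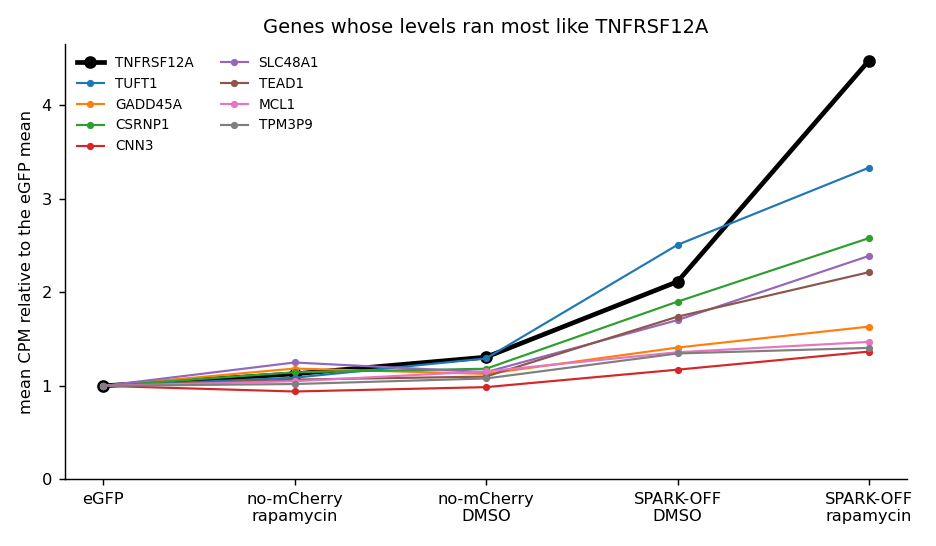
Mean CPM of TNFRSF12A (thick black line) and of the 8 genes with the highest Pearson's r to it, each divided by its own mean in eGFP cells (vertical axis, from 0), across the 5 groups. Every one of the 9 lines is highest in diffuse SPARK-OFF cells, the group in which the level of TNFRSF12A chose it.

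The ligands of these receptors had few counts. Overlap with other genes was examined for the members only, so whether reads of the ligands were lost to overlapping genes is not known. TNFSF12, which encodes TWEAK, the ligand of TNFRSF12A, averaged 0.248 to 0.486 CPM over the groups, with at most 13 counts in a library. TNFSF10 (TRAIL) reached at most 8 counts in a library, and TNF, LTA, LTB, FASLG and TNFSF11 (the ligand of TNFRSF11A) at most 3, 5, 6, 3 and 2. Of the 18 ligand genes listed, 6 passed the filter on low counts. TNFSF4, the ligand of the receptor OX40, was the ligand that rose: it was at 0.459 ± 0.104 CPM in eGFP cells, 3.62 ± 0.55 in condensed cells (log2 2.97, standard error 0.39, adjusted p = 2.47e-06) and 2.27 ± 0.625 in diffuse cells (log2 2.30, standard error 0.39, adjusted p = 9.4e-05). No-mCherry cells also had more TNFSF4 than eGFP cells, by 1.77 on the log2 scale with DMSO (adjusted p = 0.00544) and 1.78 with rapamycin (adjusted p = 0.00285). EDA, the ligand of EDAR and EDA2R, fell against eGFP cells by 0.57 on the log2 scale in condensed cells (adjusted p = 0.0237) and by 0.60 in diffuse cells (adjusted p = 0.0185). It also fell in no-mCherry cells with rapamycin (log2 -0.90, adjusted p = 0.002) and was not called in those with DMSO.

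FAS, the death receptor for FASLG, lies on chromosome 10 (chr10:88953813-89029605, plus strand). It held 14, 13.6 and 9.77 CPM in eGFP cells and 17.7, 19.0 and 18.5 CPM in no-mCherry cells with rapamycin, with no overlap between them. In diffuse SPARK-OFF cells it held 9.57, 12 and 14.4 CPM, below every no-mCherry library with rapamycin. No-mCherry cells with DMSO held 17, 17 and 17.6 CPM, also above every eGFP library. Their log2 difference of 0.46 from eGFP cells missed the threshold (adjusted p = 0.0515 by edgeR and 0.0331 by DESeq2). Without no-mCherry DMSO replicate 3 this difference was 0.44 with edgeR adjusted p = 0.129. FAS was called higher in no-mCherry cells with rapamycin than in eGFP cells (log2 0.56, 95% interval 0.24 to 0.88, adjusted p = 0.0157). It was called lower in diffuse cells than in no-mCherry cells with rapamycin, by 0.61 on the log2 scale (95% interval -0.93 to -0.30, adjusted p = 0.00926). Neither call held over all leave-one-out fits: the former was lost without eGFP replicate 3 (log2 0.42, adjusted p = 0.109) or without no-mCherry rapamycin replicate 2 or 3 (adjusted p = 0.0598 and 0.0513), and the latter without SPARK-OFF rapamycin replicate 1 (log2 -0.48, adjusted p = 0.0708). Condensed cells, at 11.5 to 16.2 CPM, overlapped both the eGFP and the diffuse libraries. FAS shares 166 exon bases with STAMBPL1 on the same strand and 387 with ACTA2 on the other, and how reads there were assigned is not given.

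The TRAIL receptors lie together on chromosome 8 and are related in sequence, and how reads matching several of them were counted is not given. TNFRSF10B (DR5, chr8:23020133-23069031, minus strand), which carries a death domain, held 87.6 to 95.4 CPM in eGFP cells, 75.2 to 87.0 in condensed and 81.7 to 91.6 in diffuse cells. No-mCherry cells held 81.4 to 92.9 CPM with DMSO and 90.7 to 109 with rapamycin, and TNFRSF10B was called in no comparison it was tested in. Its log2 difference between diffuse and condensed cells was 0.10 (95% interval -0.09 to 0.29). TNFRSF10D (DcR2, chr8:23135588-23164027, minus strand) has a truncated death domain and does not pass on the death signal. It held 13.6, 16.8 and 18.3 CPM in eGFP cells, 21.7, 22.8 and 32.5 in no-mCherry cells with DMSO and 22.8, 24.9 and 25.9 with rapamycin. Both no-mCherry groups lay above all eGFP libraries. TNFRSF10D was called higher than in eGFP cells with DMSO (log2 0.66, 95% interval 0.38 to 0.95, adjusted p = 0.00393) and with rapamycin (log2 0.60, 95% interval 0.31 to 0.88, adjusted p = 0.00521). The first of these was 0.46 with adjusted p = 0.028 without no-mCherry DMSO replicate 3, and it just missed the threshold in a fit of only the groups compared (adjusted p = 0.0517). In SPARK-OFF cells TNFRSF10D held 19.7 to 20.9 CPM when the fusion was condensed and 18.5 to 20.8 when it was diffuse, above the eGFP libraries and below the no-mCherry libraries. Its log2 difference from eGFP cells was 0.33 (95% interval 0.04 to 0.62, adjusted p = 0.0883) in condensed cells, where the call was made once no-mCherry DMSO replicate 3 was left out (adjusted p = 0.0257), and 0.25 (adjusted p = 0.205) in diffuse cells. TNFRSF10C, the other decoy receptor of the cluster, had at most 5 counts in a library, and TNFRSF11B, which encodes a soluble decoy for TRAIL and for the TNFRSF11A ligand, had none.

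TNFRSF1A, the widely expressed receptor for TNF, and TNFRSF21 (DR6), a death-domain receptor best known from neurons, were the other receptors with a call. Stretches upstream of their RefSeq start sites on GRCh38.p14, outside every exon of GENCODE v44, are shown because these members had a call between groups. The stretches upstream of the FAS start sites overlap annotated exons and are not printed. Both lie on the minus strand and are written 5′ to 3′.

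TNFRSF1A, chr12:6342115-6342326: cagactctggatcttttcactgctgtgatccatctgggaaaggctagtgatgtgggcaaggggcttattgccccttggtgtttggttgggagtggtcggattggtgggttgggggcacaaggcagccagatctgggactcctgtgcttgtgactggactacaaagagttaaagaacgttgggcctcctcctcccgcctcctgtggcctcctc
TNFRSF21, chr6:47309906-47310155: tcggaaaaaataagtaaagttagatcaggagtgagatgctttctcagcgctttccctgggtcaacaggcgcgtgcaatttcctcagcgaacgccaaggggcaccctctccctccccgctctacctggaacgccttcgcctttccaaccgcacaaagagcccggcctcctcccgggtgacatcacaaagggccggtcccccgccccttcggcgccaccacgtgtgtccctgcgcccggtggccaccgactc

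No base is in capitals, since none of the motifs searched was found in either stretch. The motifs were searched on both strands of the 250 bases before each start, as GGAATG for TEAD factors, TGANTCA for AP-1, TGACGTCA for CREB and ATF factors, the kappa B site of NF-kB, and the CArG box of serum response factor. Over 35116 promoters they were present in 11.9%, 6.57%, 1.65%, 1.4% and 1.16%. RefSeq entries matched 6 of the 10 members. Among those 6, an AP-1 match 242 bases before the most upstream FAS start was the only match. TNFRSF12A, TNFRSF10A, TNFRSF10B and TNFRSF10D had no entry.

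TNFRSF1A held 24.6, 29.0 and 29.8 CPM in eGFP cells, 28.2, 29.2 and 31.0 in condensed cells and 32.0, 34.2 and 34.2 in diffuse cells. The diffuse libraries lay above all others, though the distance to the highest condensed library was small. Against no-mCherry cells with rapamycin (25.3, 26.0 and 27.7 CPM), diffuse cells were higher by 0.35 on the log2 scale (95% interval 0.13 to 0.57, adjusted p = 0.0294). That call was lost in 5 of the leave-one-out fits (adjusted p = 0.0546 to 0.113) and without the filter on low counts (adjusted p = 0.0845). Against eGFP cells the log2 difference of diffuse cells was 0.27 (95% interval 0.05 to 0.49), not called by edgeR (adjusted p = 0.0688) and called by DESeq2 (adjusted p = 0.0449). Between diffuse and condensed cells it was 0.18 (95% interval -0.03 to 0.40).

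TNFRSF21 held 12.7, 11.4 and 15.4 CPM in eGFP cells and 9.44, 6.78 and 8.75 CPM in no-mCherry cells with rapamycin. The rapamycin libraries lay wholly below, by 0.67 on the log2 scale (95% interval -1.06 to -0.27, adjusted p = 0.0202). Without eGFP replicate 3 or no-mCherry rapamycin replicate 2 the log2 difference was -0.54 and the call was lost (adjusted p = 0.11 and 0.117). Diffuse cells, at 11.3 to 13 CPM, lay above the no-mCherry libraries with rapamycin by 0.54 on the log2 scale, which missed the threshold (95% interval 0.14 to 0.93, edgeR adjusted p = 0.0625; DESeq2 0.037). Condensed cells ranged widely, from 9.13 to 16.1 CPM. No-mCherry cells with DMSO held 10.9, 13.3 and 8.66 CPM and were not called against eGFP cells (log2 -0.26, adjusted p = 0.375). The log2 response of no-mCherry cells to rapamycin was -0.40, also not called (adjusted p = 0.334). Without no-mCherry DMSO replicate 3 these 2 values were -0.12 (adjusted p = 0.801) and -0.55 (adjusted p = 0.197). In the comparison with the call, cell line and agent both differed.

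TNFRSF19 (TROY), a receptor of neural and epithelial development, and TNFRSF11A (RANK), the receptor through which RANKL drives osteoclast formation, were called in no comparison. TNFRSF19 ranged from 6.33 to 9.24 CPM and TNFRSF11A from 6.50 to 10.4 CPM over the 15 libraries. Every group overlapped the condensed SPARK-OFF libraries in both genes. The diffuse libraries of TNFRSF19 (7.57 to 9.24 CPM) lay above those of eGFP cells (7.12 to 7.55) and of no-mCherry cells with rapamycin (6.33 to 7.17). Between diffuse and condensed cells the log2 difference was 0.11 (95% interval -0.20 to 0.42) for TNFRSF19 and 0.20 (95% interval -0.15 to 0.56) for TNFRSF11A.

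**Figure D3:**
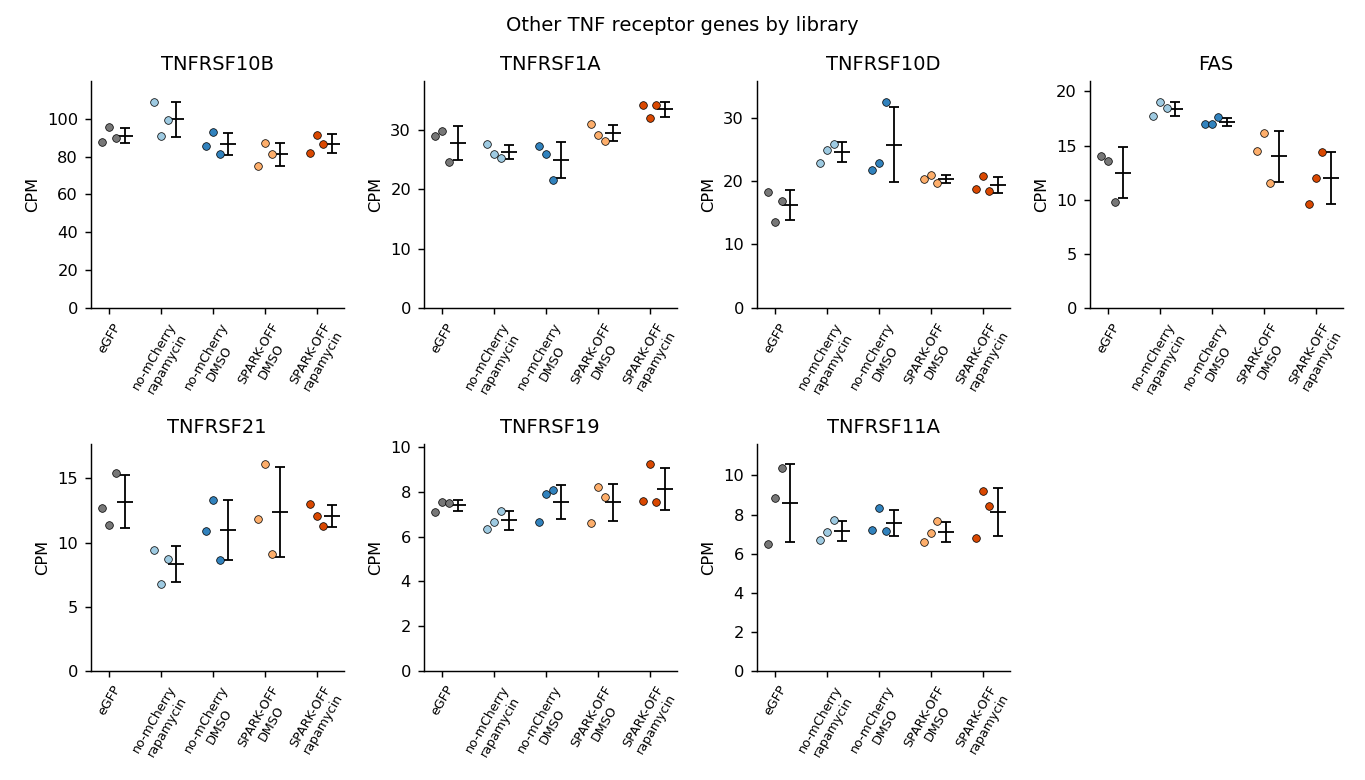
Level in CPM (vertical axes, from 0, each on its own scale) of the other 7 receptors that passed the filter, in 15 libraries (points) by group, with the mean ± SD of 3 libraries beside them. FAS and TNFRSF10D are highest in the no-mCherry groups, TNFRSF1A is highest in diffuse SPARK-OFF cells at 32.0 to 34.2 CPM, and TNFRSF21 is lowest in no-mCherry cells with rapamycin at 6.78 to 9.44 CPM.

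Of the 7 receptors other than TNFRSF12A, 0 were called by edgeR in condensed against eGFP cells, where 27.1% of all genes were called, and 1 had an unadjusted p under 0.05. DESeq2 and limma-voom also called 0. In diffuse against eGFP cells 0 of 7 were called, against 23.9% of all genes, with 1 at an unadjusted p under 0.05, 1 called by DESeq2 and 0 by limma-voom. In condensed cells against no-mCherry cells with DMSO 0 of 7 were called (7.03% of all genes), with 2 at an unadjusted p under 0.05 and 0 called by DESeq2 or limma-voom. In diffuse cells against no-mCherry cells with rapamycin 2 of 7 were called (14% of all genes), TNFRSF1A higher and FAS lower, with 5 at an unadjusted p under 0.05 and 3 called by DESeq2 and 2 by limma-voom.

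With TNFRSF12A counted as well, since it was not chosen on these groups, 1 of 8 members was called in no-mCherry cells with DMSO against eGFP cells (13.5% of all genes; 3 of 8 by DESeq2) and 3 of 8 in no-mCherry cells with rapamycin against eGFP cells (16.4% of all genes). The comparisons with eGFP cells share the same eGFP libraries. Without no-mCherry DMSO replicate 3, 977 genes in place of 2481 were called in no-mCherry cells with DMSO against eGFP cells. In condensed cells against no-mCherry cells with DMSO, 1603 genes in place of 1293 were then called. Rapamycin against DMSO in no-mCherry cells gave 0 of 8 calls by edgeR, DESeq2 and limma-voom (1.62% of all genes by edgeR), with 2 at an unadjusted p under 0.05. Between diffuse and condensed cells the log2 differences of the other 7 receptors ran from -0.23 for FAS to 0.20 for TNFRSF11A. They are given as a description with no test, since this contrast chose TNFRSF12A.

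**Figure D4:**
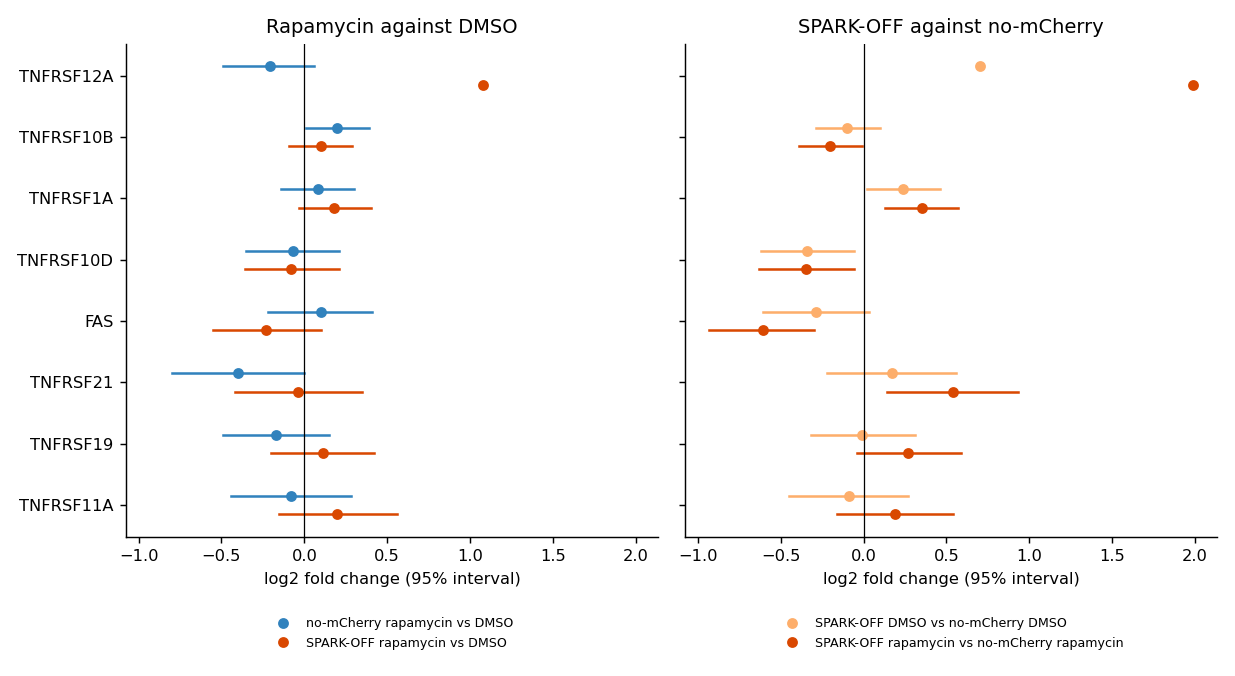
Log2 fold change (horizontal axis; lines are 95% intervals from the edgeR fit, drawn for TNFRSF12A in the no-mCherry cells only) of the 8 receptors that passed the filter, for rapamycin against DMSO within each cell line (left) and for SPARK-OFF against no-mCherry cells with the same agent (right). The other receptors lie between -0.61 and 0.54, and TNFRSF12A, which was chosen for its level in diffuse cells, is shown at 1.08 and 1.99 as a description.

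Of 19 other receptors of the family listed, 8 passed the filter, and 25% of these were called in condensed and in diffuse cells against eGFP cells, beside 27.1% and 23.9% of all genes. In condensed cells 0 rose and 2 fell, TNFRSF13C, the receptor for the B-cell factor BAFF (log2 -0.85, adjusted p = 0.00454), and TNFRSF25, a death-domain receptor (log2 -0.60, adjusted p = 0.0464). In diffuse cells 0 rose and 2 fell, TNFRSF13C (log2 -0.62, adjusted p = 0.0329) and CD40 (log2 -0.48, adjusted p = 0.0461), and neither was called without the filter on low counts. No gene of this list was higher in either comparison at an unadjusted p under 0.05 or by DESeq2 or limma-voom. EDA2R, an ectodysplasin receptor that is also a p53 target gene, was at 11.1 ± 1.39 CPM in eGFP cells, 13.4 ± 0.789 in no-mCherry cells with DMSO and 17.0 ± 1.21 with rapamycin, but 9.49 ± 0.669 in condensed and 9.97 ± 1.24 in diffuse cells. It was lower in SPARK-OFF than in no-mCherry cells under DMSO (log2 -0.51, adjusted p = 0.0256) and under rapamycin (log2 -0.77, adjusted p = 0.000398).

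Of 33 genes of receptor adaptors and NF-kB signalling, 32 were tested. Against eGFP cells 5 rose and 1 fell in condensed cells and 5 rose and 2 fell in diffuse cells, 18.8% and 21.9% of those tested beside 27.1% and 23.9% of all genes. RELB, a subunit of the noncanonical NF-kB factor, rose from 5.82 ± 0.384 CPM in eGFP cells to 10.2 ± 0.151 in condensed (log2 0.81, adjusted p = 0.000899) and 10.4 ± 0.911 in diffuse cells (log2 0.83, adjusted p = 0.000768). NFKBIA, the inhibitor that NF-kB itself induces, rose from 15.7 ± 2.07 CPM to 25.6 ± 1.10 (log2 0.71, adjusted p = 0.000274) and 25.3 ± 1.85 (log2 0.69, adjusted p = 0.000409). In no-mCherry cells RELB was also called higher, with DMSO (log2 0.56, adjusted p = 0.0304) and with rapamycin (log2 0.62, adjusted p = 0.0133). NFKBIA was called in neither of these groups. TRAF1, an adaptor that is also an NF-kB target gene, fell from 4.42 ± 1.03 CPM in eGFP cells to 2.02 ± 0.149 in diffuse cells (log2 -1.13, adjusted p = 0.00229). TRAF2, the adaptor that TNFRSF12A and TNFRSF1A share, was at 41.4 ± 4.77, 37.3 ± 2.05 and 36.8 ± 1.60 CPM in eGFP, condensed and diffuse cells and was not called. Between diffuse and condensed cells 0 of 32 were called by edgeR, DESeq2 or limma-voom, with 2 at an unadjusted p under 0.05.

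Among 22 genes of death-receptor signalling and apoptosis, 20 were tested. Against eGFP cells 4 rose and 2 fell in condensed cells, and 4 rose and 1 fell in diffuse cells, 30% and 25% of those tested beside the 27.1% and 23.9% of all genes. BCL2L1, a survival gene of the BCL2 family, went from 8.66 ± 0.77 CPM to 18.6 ± 2.59 in condensed (log2 1.10, adjusted p = 4.36e-06) and 17.9 ± 1.54 in diffuse cells (log2 1.04, adjusted p = 9.52e-06). MCL1, another survival gene, went from 200 ± 4.04 CPM to 272 ± 8.13 (log2 0.44, adjusted p = 0.00118) and 294 ± 7.45 (log2 0.55, adjusted p = 0.000156). BAX, which permeabilizes mitochondria in apoptosis, fell by 0.36 on the log2 scale in condensed cells (adjusted p = 0.0028) and by 0.40 in diffuse cells (adjusted p = 0.00115). CASP8, the caspase that death receptors activate, rose in condensed cells (log2 0.41, adjusted p = 0.0274). In no-mCherry cells BCL2L1 was also called higher with rapamycin (log2 0.65, adjusted p = 0.00305) but not with DMSO. MCL1, BAX and CASP8 were not called against eGFP cells in either no-mCherry group. Of the same 20 genes 0 were called between diffuse and condensed cells by edgeR, DESeq2 or limma-voom, with 1 at an unadjusted p under 0.05.

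Of 23 genes known to respond to NF-kB or TNF, 16 were tested. Against eGFP cells 6 rose and 1 fell in condensed cells, 43.8% of those tested beside 27.1% of all genes, and 5 rose and 0 fell in diffuse cells, 31.2% beside 23.9% (edgeR; 0 lower at an unadjusted p under 0.05 or by DESeq2 or limma-voom). CCL20, a chemokine gene, had no counts in eGFP cells and 4.80 ± 0.183 CPM in condensed and 1.72 ± 0.132 CPM in diffuse cells, at least 76.9-fold and at least 27.6-fold higher against a group floor of 3 counts. GADD45B, a stress gene related to GADD45A, rose from 12.4 ± 0.562 CPM to 89.6 ± 7.27 (log2 2.86, adjusted p = 6.05e-15) and 66.4 ± 3.11 (log2 2.43, adjusted p = 1.68e-13). No-mCherry cells held 1.90 ± 0.251 CPM of CCL20 with DMSO and 2.53 ± 0.552 with rapamycin. They were also called higher than eGFP cells in GADD45B, with DMSO (log2 1.33, adjusted p = 3.21e-08) and with rapamycin (log2 1.17, adjusted p = 2.03e-07). CCL20 was the 1 gene of this list called between diffuse and condensed cells, where it fell by 1.48 on the log2 scale (adjusted p = 0.0118), opposite in direction to TNFRSF12A. CXCL1, CCL2, IL6, ICAM1, VCAM1 and MMP9, which inflammation commonly induces, did not pass the filter on low counts.

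The 18 targets of p53 or of the stress factor CHOP were listed because FAS and TNFRSF10B are known targets of these factors, and all 18 were tested. In diffuse cells against no-mCherry cells with rapamycin, the comparison in which FAS fell, 9 of them were lower and 2 higher, 61.1% beside 14% of all genes, and their median log2 fold change was -0.29 beside -0.00 for all genes. The 9 lower ones were all p53 targets: CDKN1A, the cell-cycle inhibitor p21, went from 107 ± 1.62 to 56.0 ± 1.97 CPM (log2 -0.94, adjusted p = 1.52e-07), FDXR from 93.0 ± 7.28 to 46.7 ± 3.22 (log2 -0.99, adjusted p = 5.53e-07) and GDF15 from 15.3 ± 0.741 to 6.37 ± 1.35 (log2 -1.25, adjusted p = 2.79e-05). The 2 higher ones, PPP1R15A (log2 1.17, adjusted p = 5.4e-08) and CHAC1 (log2 0.90, adjusted p = 0.0116), belong to the CHOP and ATF4 stress response. Under DMSO the same contrast of cell lines gave 5 lower and 1 higher, 33.3% beside 7.03% of all genes. Against eGFP cells 4 were lower and 2 higher in condensed cells and 5 lower and 1 higher in diffuse cells, 33.3% in each beside 27.1% and 23.9% of all genes. FAS was not called between the cell lines under DMSO (log2 -0.29, adjusted p = 0.279). Against eGFP cells FAS was not called in condensed (log2 0.17, adjusted p = 0.443) or diffuse cells (log2 -0.05, adjusted p = 0.849). MDM2, the p53 target that restrains p53, was at 184 ± 11.9 CPM in eGFP cells, 106 ± 12.2 in condensed (log2 -0.79, adjusted p = 2.36e-06) and 122 ± 6.50 in diffuse cells (log2 -0.59, adjusted p = 9.17e-05). In no-mCherry cells with rapamycin against eGFP cells, where FAS and TNFRSF10D were higher, 6 of the 18 were higher and 0 lower, 33.3% beside 16.4% of all genes (DESeq2 and limma-voom also called 6 higher and 0 lower, and 0 were lower at an unadjusted p under 0.05). TNFRSF10B was called in neither comparison: its log2 difference was -0.20 (95% interval -0.39 to -0.01, adjusted p = 0.158) in the former and 0.13 (95% interval -0.06 to 0.32, adjusted p = 0.36) in the latter. Between diffuse and condensed cells 0 of the 18 were called by edgeR, DESeq2 or limma-voom, with 2 at an unadjusted p under 0.05. The part of p53 or CHOP in the levels of FAS and the other receptors was not tested. SPARK-OFF and no-mCherry cells also differed in mCherry and in the level of fusion RNA.

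**Figure D5:**
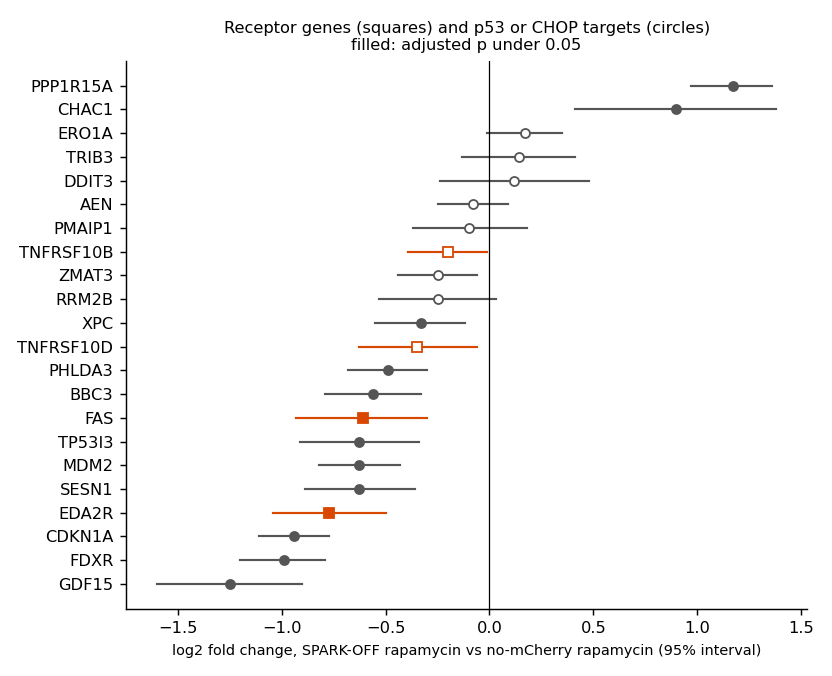
Log2 fold change in diffuse SPARK-OFF cells against no-mCherry cells with rapamycin (horizontal axis; lines are 95% intervals) for 3 of the receptors and EDA2R (squares) and for 18 targets of p53 or CHOP (circles), with filled symbols where the adjusted p was under 0.05. FAS at -0.61 and EDA2R at -0.77 lie among the 9 lower p53 targets, while TNFRSF10B at -0.20 and TNFRSF10D at -0.35 are open symbols.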

How the data were processed

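PolyA RNA of 15 libraries was sequenced by the authors. Reads were trimmed (fastp), aligned to hg38 (STAR) and, per the labels' processing notes, counted with HTSeq. The deposited table holds raw counts per gene, with no normalization. Neither the annotation nor the strand setting is given in the sources used here, so antisense or overlapping genes may share reads. Of 61533 identifiers, 61369 matched GENCODE v44 without their version number. Promoters are from RefSeq (GRCh38.p14).

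Groups and replicate numbers came from the labels. Genes were kept by filterByExpr (18391), scaled by TMM (factors 0.901 to 1.05) and fitted by group in edgeR 4.0.16 (R 4.3.3), with glmQLFTest and Benjamini-Hochberg adjustment over all genes. The common biological coefficient of variation was 0.111. The steps were tested on simulated data. Alternatives were no filter on low counts, RLE size factors, DESeq2 1.42.0, limma-voom (limma 3.58.1), a replicate block, a fit of only the groups compared, and leaving out each library.

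The members and gene lists were chosen with earlier results of these data known. Named genes are the members, their ligands and decoys, MAML2, YAP1, CCN1 and CCN2, the 8 genes most correlated with TNFRSF12A (prior count 2), and per list and comparison up to 3 called genes per direction with the largest change and at least 1 CPM. TRAF2 and the list genes that failed the filter were named after their values were seen.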

Additional observations from a re-analysis of the deposited data

How the results depend on the processing

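The log2 fold change of TNFRSF12A between diffuse and condensed cells was 1.08 or 1.09 under each alternative fit, replicate block included, and 1.05 to 1.12 with a library left out. The replicate numbers did not pair the libraries: 12 of 30 same-numbered pairs across groups had a correlation of deviations over 0.1 (range -0.75 to 0.72), and 6 of 15 libraries correlated best with their own number. With the replicate block, 0 of 7 receptors were called in condensed and in diffuse against eGFP cells and 1 of 8 in no-mCherry cells with DMSO against eGFP cells, as without it. In diffuse against eGFP cells, DESeq2 and the fit of only the groups compared each called 1 receptor in place of 0. In no-mCherry cells with DMSO against eGFP cells, the fit without the filter on low counts called 3 in place of 1, RLE size factors 2, DESeq2 3 and the fit of only the groups compared 0. With 1 library left out, the count ran from 0 to 1 in condensed and in diffuse against eGFP cells, where the call came without no-mCherry DMSO replicate 3, and from 1 to 3 in no-mCherry cells with DMSO against eGFP cells. The cause of these changes was not tested. No value of a member changed sign past the threshold. Over members and alternatives, 1055 values kept their side of the threshold, 24 gained a call and 13 lost one. Counts of 0 to 6 for TNFRSF10A and LTBR allowed no comparison.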
